A study of Mus musculus with 16 samples.

Results

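Dll1, Dll4, Jag1, Jag2, Notch1, Notch4, Hey1, Heyl and Hes1 are 9 genes of the Notch pathway as it works in blood vessels, taken by symbol from 4 deposited expression tables that together list 24934 genes. RNA sequencing libraries were made from liver and 3 fat depots, which were brown fat and the epididymal and inguinal white fats, of C57BL/6 mice aged 24 weeks. The mice carried no stated genetic change and had received either vehicle or sunitinib (labelled sutent), a kinase inhibitor that blocks the receptors of vascular endothelial and platelet-derived growth factors, among others. Each tissue had 2 vehicle and 2 sunitinib libraries, 16 libraries in all, and the design text counts 8 mice, 4 on each treatment. No label ties a library to a mouse or a pool of mice, so p-values measure only the spread between libraries, which may be technical, and the sources used here give no dose, duration or sex. The sunitinib livers are numbered 3 and 4, as their titles number them.

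Notch signalling passes between touching cells: a Delta-like (Dll) or Jagged (Jag) ligand on 1 cell binds a Notch receptor on its neighbour, the receptor is cut by an ADAM protease and by gamma-secretase, and its intracellular part joins the DNA-binding protein RBPJ to switch on targets such as the Hes and Hey repressors. In sprouting vessels, vascular endothelial growth factor (VEGF) induces Dll4 in the leading tip cells, and Dll4 acting on Notch1 keeps the neighbouring stalk cells from sprouting too. Jag1 works against Dll4 in that setting and is also shown by endothelium to the Notch3-bearing mural cells that wrap the vessel.

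The sequences just upstream of the transcription start are shown for the 3 genes whose brown fat difference was farthest from 0, because Hes and Hey repressors and RBPJ act through short motifs of that kind. They are the 250 bases before the start in the RefSeq promoter windows (build GRCm38.p6), which cover 6 of the 9 genes. The targets Hes1, Hey1 and Heyl had no window and were not searched. The window of Dll4 is chr2:119325534-119325783 on the plus strand, that of Notch1 is chr2:26503823-26504072 on the minus strand and that of Jag2 is chr12:112929496-112929745 on the minus strand. Capitals mark the N-box.
Dll4: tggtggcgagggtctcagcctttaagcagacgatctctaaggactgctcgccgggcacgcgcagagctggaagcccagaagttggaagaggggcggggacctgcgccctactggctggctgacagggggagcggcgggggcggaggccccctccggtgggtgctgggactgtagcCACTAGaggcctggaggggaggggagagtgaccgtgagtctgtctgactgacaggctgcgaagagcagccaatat
Notch1: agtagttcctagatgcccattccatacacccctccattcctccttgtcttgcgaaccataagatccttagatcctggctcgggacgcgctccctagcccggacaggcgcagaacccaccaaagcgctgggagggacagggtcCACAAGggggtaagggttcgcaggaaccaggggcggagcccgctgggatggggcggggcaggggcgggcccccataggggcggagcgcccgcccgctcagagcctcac
Jag2: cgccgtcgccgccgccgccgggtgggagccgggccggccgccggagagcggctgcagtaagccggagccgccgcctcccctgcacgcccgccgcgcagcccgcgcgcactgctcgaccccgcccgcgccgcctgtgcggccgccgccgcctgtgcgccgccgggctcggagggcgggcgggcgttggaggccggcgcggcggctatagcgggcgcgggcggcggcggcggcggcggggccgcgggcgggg
The motifs searched, on both strands, were the N-box CACNAG and the E-box CANNTG of Hes and Hey proteins, the RBPJ core TGGGAA and the longer RBPJ form GTGGGAA, which contains the core. Dll4 holds 1 N-box (CACTAG), 75 bases before the start, and Notch1 holds 1 (CACAAG), 108 bases before the start. An N-box occurs in 36.7% of all 32851 windows of that length, and an E-box in 66.2%. The E-box letters occur in the windows of Dll1, Jag1 and Notch4 and not in those of Dll4, Jag2 and Notch1. Neither RBPJ form is in any of the 7 windows of the 6 genes covered (Dll1 has a pair of windows), which leave out Hes1, Hey1 and Heyl. Of all windows, 21.6% hold the core and 5.42% the longer form. A match of these letters is a description of the sequence.

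The deposited values are regularized log2 expression (rlog), in which a gene with few reads is pulled towards its own mean. A difference of 1 is a doubling before that shrinkage, and differences of low genes are understated. The tables hold no read totals, so the depth of each library is unknown. Of the 9 genes, 8 had a mean rlog of at least 3, the minimum for a test, in each of the 3 fats, and 7 in liver. Notch4 was below that minimum in every fat and is not listed for liver, and Jag2 was below it in liver. Sunitinib was compared with vehicle within each table with limma, and a gene passed at a Benjamini-Hochberg adjusted p below 0.05 over all genes tested in that tissue.

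The tissue labels fitted their defining markers: Ucp1, the brown fat uncoupling protein, was at 16.46 to 16.93 in the brown fat libraries and at most 7.58 in all others, and Alb, made by hepatocytes, was at 20.13 to 20.33 in liver and at most 10.81 elsewhere. All 15 pan-endothelial markers were above the minimum in each of the 4 tables. Some libraries stood apart. Inguinal sunitinib replicate 2 had a lymphocyte marker mean 3.06 above the mean of its tissue and a skeletal muscle mean 3.22 below it. Inguinal vehicle replicate 1 had a skeletal muscle mean 2.16 above the mean of that tissue. Brown fat vehicle replicates 1 and 2 lay at −1.81 and 2.01 for the skeletal muscle markers. Epididymal sunitinib replicate 1 had a mural marker mean 0.71 above its tissue, with the smooth muscle gene Myh11 at 13.61 against 9.41 to 10.11 in the other 3 libraries.

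In vehicle mice the 9 genes did not share 1 order of tissues. Because each table was normalized on its own, levels were set relative to the median of the 11113 genes tested in all 4 tables, and no test was made between tissues. On that scale Dll4 was 0.36 and 0.44 above the median in the 2 brown fat libraries, −0.44 and −0.42 in inguinal fat, −1.24 and −0.95 in epididymal fat and −2.16 and −2.12 in liver. The order of Dll4 was therefore brown fat, inguinal fat, epididymal fat and liver, with no overlap between neighbours. As deposited, inguinal fat (8.31 and 8.28) stood just above brown fat (8.22 and 8.12).

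Jag2, Hey1 and Heyl were ordered brown fat, inguinal fat, epididymal fat and liver on both scales, as Dll4 was relative to the median. Jag2 relative to the median had a mean of 0.07 in brown fat, −1.41 in inguinal fat and −1.85 in epididymal fat. Heyl had means of 0.07, −1.11, −1.36 and, in liver, −3.00 on that scale, and Hey1 had −1.16, −2.41, −2.87 and −4.51. Notch1 and Jag1 were lower in brown fat than in either white fat. Notch1 relative to the median was at 0.94 in epididymal fat, 0.86 in inguinal fat, 0.54 in brown fat and −0.56 in liver. Jag1 was at 1.11 in inguinal fat, 0.85 in epididymal fat, −0.03 in brown fat and −1.86 in liver. The vehicle libraries of neighbouring tissues did not overlap for any of these genes, on either scale.

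Hes1, the repressor that many cell types besides endothelium express, was highest in liver on both scales, at −0.43 relative to the median there against −1.25 in brown fat, −1.67 in inguinal fat and −1.86 in epididymal fat. Dll1 also led in liver relative to the median (−2.04), followed by brown fat (−2.33) and inguinal fat (−2.37), whose libraries overlapped, and by epididymal fat (−2.78). As deposited, Dll1 was highest in inguinal fat (6.35) and lowest in brown fat (5.43), so its order depends on the scale. Notch4 lay between 2.52 and 2.75 as deposited in all 6 vehicle fat libraries, a level at which rlog values carry little information.

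**Figure D1:**
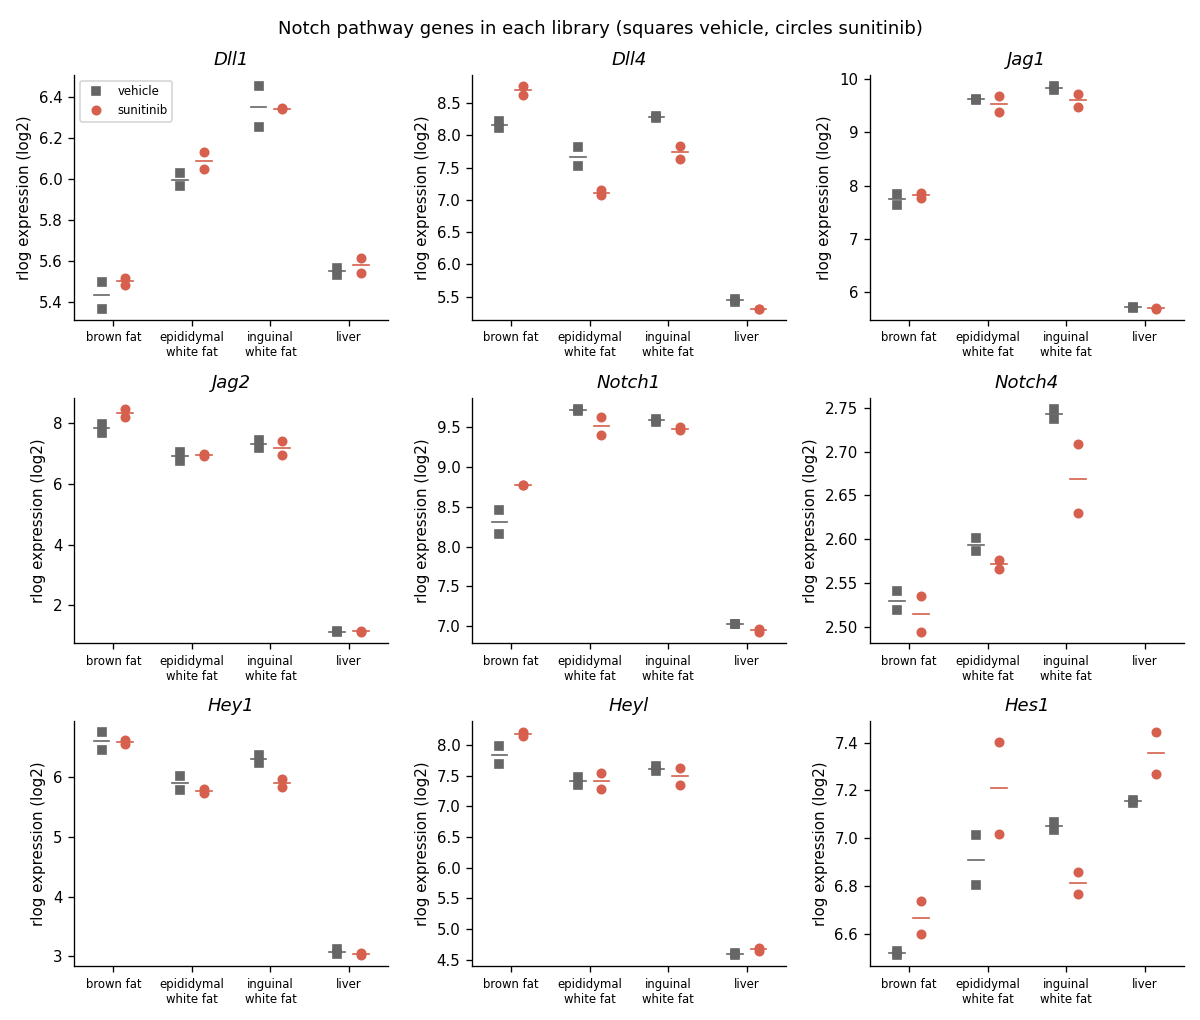
Deposited rlog expression (log2, vertical axis, scaled per panel) of each gene in the 4 tissues, with 1 square per vehicle library, 1 circle per sunitinib library and a line at each group mean; Notch4 has no liver values. For Dll4 the brown fat circles (8.63 and 8.77) lie above the squares and the circles of both white fats lie below theirs.

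Sunitinib was set against vehicle to ask how the drug moved these genes in each tissue, and in the 3 fats Dll4 was farthest from 0. In brown fat Dll4 read 8.22 and 8.12 in the vehicle libraries and 8.77 and 8.63 in the sunitinib libraries. Both sunitinib libraries were above both vehicle libraries, a difference of 0.53 ± 0.08 (log2, SE, 2 libraries per group) or 1.44-fold. By unadjusted p Dll4 ranked 17 of 13044 genes tested, and its adjusted p in limma was 0.228, the smallest value in that tissue, which it shares with other genes. No gene passed there in either direction (0% higher and 0% lower, with 1191 and 910 genes at an unadjusted p below 0.05). The difference was 0.58 without vehicle replicate 1, 0.48 without vehicle replicate 2, 0.46 without sunitinib replicate 1 and 0.60 without sunitinib replicate 2. Such a fit leaves 1 library alone in its group and assumes that it varies like the other group, so only the sizes are given.

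In the white fats Dll4 lay on the other side. The epididymal libraries read 7.52 and 7.82 with vehicle and 7.07 and 7.15 with sunitinib. Both sunitinib libraries were below both vehicle libraries, by 0.56 ± 0.12 on average (limma adjusted p = 0.0874). The difference was −0.71 without vehicle replicate 1, −0.42 without vehicle replicate 2, −0.53 without sunitinib replicate 1 and −0.60 without sunitinib replicate 2. Vehicle replicate 2 had a pan-endothelial marker mean 0.39 above the mean of its tissue. The background in epididymal fat was 0.277% of genes higher and 2.06% lower. The inguinal libraries read 8.31 and 8.28 with vehicle and 7.63 and 7.84 with sunitinib, a difference of −0.56 ± 0.13 (limma adjusted p = 0.331). The groups again did not overlap. In that tissue no gene passed (0% higher and 0% lower, with 578 and 1313 genes at an unadjusted p below 0.05). Without the lymphocyte-rich sunitinib replicate 2 the inguinal difference of Dll4 was −0.66, and without sunitinib replicate 1 it was −0.45.

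In liver Dll4 read 5.42 and 5.47 with vehicle and 5.32 and 5.31 with sunitinib. The sunitinib livers were lower by 0.13 ± 0.06 (limma adjusted p = 0.557), without overlap, and the background was 0.121% of genes higher and 0.0726% lower. In bulk tissue, fewer cells of a type and less RNA per cell cannot be told apart, which applies to each of these values.

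The other Delta-like ligand, Dll1, and the Jagged ligands differed less, apart from Jag2 in brown fat. Jag2 in brown fat read 7.99 and 7.69 with vehicle and 8.47 and 8.22 with sunitinib. Both sunitinib libraries were above both vehicle libraries, by 0.50 ± 0.13 (limma adjusted p = 0.233). In epididymal fat (0.05 ± 0.12) and inguinal fat (−0.13 ± 0.22) the libraries of Jag2 overlapped. In liver Jag2 was below the test's minimum, with a vehicle mean of 1.13.

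Jag1 in inguinal fat read 9.80 and 9.87 with vehicle and 9.73 and 9.47 with sunitinib, lower by 0.24 ± 0.13 (limma adjusted p = 0.476). It was at 0.07 ± 0.09 in brown fat, −0.09 ± 0.11 in epididymal fat and −0.02 ± 0.06 in liver. The libraries of the groups overlapped in brown and epididymal fat. Dll1 ran from −0.01 ± 0.15 in inguinal fat to 0.09 ± 0.07 in epididymal fat.

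Of the receptors, Notch1 gave its largest difference in brown fat, where it read 8.46 and 8.15 with vehicle and 8.77 and 8.77 with sunitinib. The sunitinib libraries were 0.47 ± 0.11 higher and much closer to each other than the vehicle libraries were (limma adjusted p = 0.228). In epididymal fat Notch1 read 9.70 and 9.72 with vehicle and 9.39 and 9.62 with sunitinib, a difference of −0.20 ± 0.09 (limma adjusted p = 0.307). Inguinal fat gave −0.10 ± 0.09 and liver −0.08 ± 0.07. In each of these 3 tissues both sunitinib libraries were below both vehicle libraries. Notch4, a receptor of endothelial cells, differed by −0.01 in brown fat, −0.02 in epididymal fat and −0.07 in inguinal fat and was not tested.

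The target genes Hey1, Heyl and Hes1, which are read out when a Notch receptor is cut, did not follow Dll4 alike. Heyl in brown fat read 7.99 and 7.68 with vehicle and 8.20 and 8.15 with sunitinib. The sunitinib libraries were higher by 0.34 ± 0.11 without overlap (limma adjusted p = 0.262). Heyl was at −0.01 ± 0.11 in epididymal fat, −0.12 ± 0.16 in inguinal fat and 0.08 ± 0.05 in liver.

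Hey1 in inguinal fat read 6.38 and 6.24 with vehicle and 5.97 and 5.83 with sunitinib. Both sunitinib libraries were lower, by 0.41 ± 0.15 (limma adjusted p = 0.393). In brown fat, where Dll4 was higher, Hey1 differed by −0.02 ± 0.11, and its vehicle libraries (6.75 and 6.46) lay on both sides of the sunitinib libraries (6.55 and 6.62). It was at −0.14 ± 0.10 in epididymal fat and −0.04 ± 0.04 in liver.

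Hes1 in liver read 7.16 and 7.15 with vehicle and 7.44 and 7.27 with sunitinib, higher by 0.20 ± 0.08 (limma adjusted p = 0.519). In brown fat it read 6.53 and 6.51 with vehicle and 6.74 and 6.60 with sunitinib, higher by 0.15 ± 0.08 (limma adjusted p = 0.391). In epididymal fat it read 6.80 and 7.01 with vehicle and 7.40 and 7.02 with sunitinib, a difference of 0.30 ± 0.15. The high value belonged to sunitinib replicate 1, the library with the high mural markers, and without it the difference was 0.11. In inguinal fat Hes1 was lower by 0.24 ± 0.14, without overlap.

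**Figure D2:**
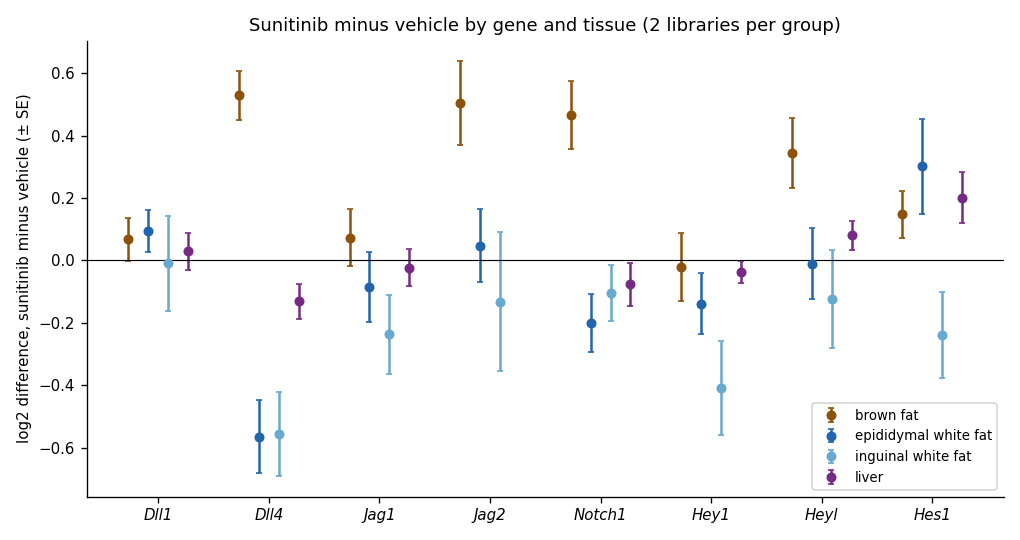
Sunitinib minus vehicle (log2 rlog, vertical axis) for the 8 genes tested, in each tissue (colours), with points at the difference and bars of 1 SE from limma, 2 libraries per group; Jag2 in liver was below the minimum. The brown fat points of Dll4, Jag2 and Notch1 lie between 0.47 and 0.53, and the white fat points of Dll4 lie at −0.56.

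Counted over the 9 genes, 0 passed within any tissue. An unadjusted p below 0.05 was reached by 4 of 8 in brown fat (16.1% of all genes tested), 1 of 8 in epididymal fat (20.1%), 1 of 8 in inguinal fat (12.7%) and 2 of 7 in liver (8.64%). The single genes in the white fats are no more than the background gives. The sunitinib and vehicle libraries did not overlap for 5 of 8 in brown fat, where this held for 50.2% of all genes tested. The 5 were Dll4, Jag2, Notch1, Heyl and Hes1, all higher. The other counts were 4 of 8 in epididymal fat (background 53.7%), 5 of 8 in inguinal fat (background 50.4%) and 5 of 7 in liver (background 37.4%). In the 3 fats these shares are near the background. All 5 in inguinal fat were lower, as were 2 of the 4 in epididymal fat and 3 of the 5 in liver.

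The median difference of the genes tested was 0.25 in brown fat, with 7 of 8 above 0, and −0.18 in inguinal fat, with 0 of 8 above 0. It was −0.05 in epididymal fat and −0.02 in liver, and without vehicle replicate 2 of the tissue it was 0.0195 and 0.00890. Over all genes tested the median lay between −0.005 and 0.010 in the 4 tissues. Without brown fat vehicle replicate 1 the differences of Dll4, Jag2, Notch1 and Heyl lay between 0.50 and 0.66. Without vehicle replicate 2 they were 0.48, 0.35, 0.31 and 0.19, in that order. Vehicle replicate 2 was the library high in skeletal muscle markers (2.01) and low in pan-endothelial markers (−0.34), as deviations from the tissue mean.

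Whether the drug's effect differed between tissues was tested directly, for 45 combinations of gene and tissue pair, and 1 passed. The effect on Dll4 was 1.09 ± 0.15 higher in brown fat than in epididymal fat (limma adjusted p = 0.0117, rank 103 of 12661 genes), where 3.64% of all genes passed. Both brown fat sunitinib libraries were above their vehicle libraries and both epididymal ones below theirs. The call was lost without brown fat sunitinib replicate 1 (1.02, limma adjusted p = 0.0694) and held without any other of the 8 libraries, with adjusted p-values up to 0.0460.

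Against inguinal fat the Dll4 effect in brown fat was 1.09 ± 0.14 higher, the same size, and did not pass (limma adjusted p = 0.107, rank 20 of the genes of that pair, of which 0.0314% passed). Without inguinal sunitinib replicate 2 that difference was 1.19, and without inguinal sunitinib replicate 1 it was 0.98. Against liver it was 0.66 ± 0.10 (limma adjusted p = 0.0800), in a pair where 0% of genes passed. Without brown fat vehicle replicate 1 the difference from liver was 0.71. Other brown fat libraries made it smaller when left out. Dll4 in brown fat was at 0.48 without vehicle replicate 2 and 0.46 without sunitinib replicate 1, against 0.53 with all libraries. The effects in the 2 white fats differed by −0.01 ± 0.18, in a pair where 0% passed. From liver, the epididymal effect differed by −0.43 ± 0.13 (limma adjusted p = 0.109, background 3.95%) and the inguinal effect by −0.43 ± 0.14 (limma adjusted p = 0.274, background 0.043%).

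Notch1 came next. Its effect in brown fat was 0.67 ± 0.16 higher than in epididymal fat (limma adjusted p = 0.0614), 0.57 ± 0.15 higher than in inguinal fat (limma adjusted p = 0.216) and 0.54 ± 0.13 higher than in liver (limma adjusted p = 0.164). The first of these was 0.82 without brown fat vehicle replicate 1 and 0.78 without epididymal sunitinib replicate 2. Other libraries moved it the other way. Within brown fat Notch1 was at 0.31 without vehicle replicate 2, against 0.47 with all libraries. Within epididymal fat it was at −0.09 without sunitinib replicate 1, against −0.20 with all libraries. For Jag2 the brown fat effect was 0.46 ± 0.20 higher than the epididymal effect (limma adjusted p = 0.225). Hes1 differed in another pattern, with an effect 0.54 ± 0.21 higher in epididymal than in inguinal fat (limma adjusted p = 0.496) and −0.15 ± 0.18 in brown fat relative to epididymal fat. Because each comparison of a pair shares its libraries with others, these differences are not independent of each other.

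**Figure D3:**
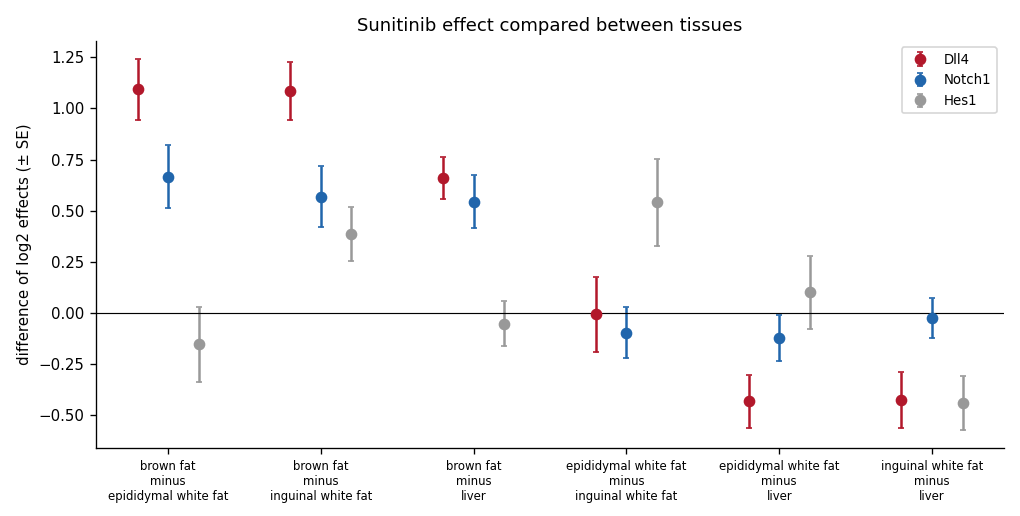
Difference between tissues of the sunitinib effect (log2, vertical axis) for Dll4, Notch1 and Hes1 in the 6 tissue pairs (horizontal axis), with bars of 1 SE from limma. Dll4 lies at 1.09 in both comparisons of brown fat with a white fat and at −0.01 between the white fats.

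The rest of the pathway was taken from lists of its parts. Among the other receptors, Notch3, the receptor of mural cells, was at −0.38 ± 0.14 in epididymal fat (limma adjusted p = 0.239), −0.28 ± 0.12 in inguinal fat and 0.10 ± 0.08 in brown fat. Notch2 was between −0.16 and 0.27, with the high value in inguinal fat, where sunitinib replicate 2 read 10.45 against 9.72 to 9.93 in the other 3 libraries. Neither passed in any tissue.

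Of the 10 genes of Notch cleavage, 1 passed in epididymal fat and 0 in the other tissues. Psen2, a catalytic subunit of gamma-secretase, read 10.38 and 10.37 with vehicle and 9.98 and 9.97 with sunitinib, and fell by 0.40 ± 0.06 (limma adjusted p = 0.0462). The list as a whole had 8 of 10 below 0 in epididymal fat (median −0.18), 9 of 10 in inguinal fat (−0.11) and 4 of 10 in brown fat (0.01). Aph1c, another gamma-secretase subunit, was at −0.42 ± 0.08 in epididymal fat (limma adjusted p = 0.0721) and Adam17, a protease that cuts membrane proteins outside the cell, at −0.35 ± 0.08. Without either epididymal vehicle library no gene of the whole table passed, so Psen2 was lost too. The effects on Psen2 (0.49 ± 0.09) and Aph1c (0.38 ± 0.08) were higher in brown than in epididymal fat (limma adjusted p = 0.0283 and 0.0436), and each call was lost when any 1 of 7 of the 8 libraries was left out.

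Macrophage markers moved in the same tissue: all 8 tested were below 0 in epididymal fat, and 6 passed (Cd68, Csf1r, Itgam, Itgax, Lyz2 and Trem2). Those calls too were lost without either vehicle library. The summed level of the macrophage markers (log2) was 14.91 to 15.02 with vehicle and 14.04 to 14.13 with sunitinib. Epithelial markers stood higher with sunitinib there, 9 of 10 above 0, with a summed level of 10.33 to 11.03 with vehicle and 11.99 to 12.01 with sunitinib. Their part in the differences of Psen2 and of the Notch genes was not tested.

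Of the glycosylation list, which holds the Fringe enzymes that tune which ligand a receptor answers, 0 genes passed in any tissue, and the medians ran from −0.15 in epididymal fat to 0.11 in brown fat. Lfng was at −0.19 ± 0.11 in epididymal fat and 0.11 ± 0.08 in brown fat. The list of endocytosis and turnover, with the Mindbomb and Neuralized ligases that activate ligands, had 0 passing genes and medians between −0.02 and 0.05. Its largest values were in inguinal fat: Dtx1 read 3.92 and 4.03 with vehicle and 5.13 and 7.84 with sunitinib, and Neurl1a 7.91 and 6.84 with vehicle and 6.38 and 5.29 with sunitinib. The extreme values of both came from sunitinib replicate 2, the library that stood apart in lymphocyte and muscle markers.

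The nuclear complex list also had 0 of 17 passing in every tissue. Rbpj was at −0.09 ± 0.06 in brown fat and −0.18 ± 0.08 in epididymal fat. Kat2b, a histone acetyltransferase that can be recruited by the Notch complex, was at −0.29 ± 0.07 in brown fat and 0.23 ± 0.07 in epididymal fat. That difference between the tissues (−0.51 ± 0.10, limma adjusted p = 0.0385) passed, opposite in sign to Dll4, and was lost when any 1 of the 8 libraries was left out. Among the other and non-canonical ligands 0 passed. Egfl7, a secreted endothelial protein that is also on the endothelial list, was at 0.31 ± 0.09 in brown fat, and Dlk1, a preadipocyte protein, at 0.28 ± 0.10.

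Among the other target genes, several stood higher in brown fat. Cdkn1a, which encodes the cell cycle inhibitor p21, was at 0.59 ± 0.12 there, Efnb2, the arterial ephrin, at 0.44 ± 0.10, and Nrarp, a feedback inhibitor of Notch, at 0.34 ± 0.10. None of the 12 tested passed, and 10 of 12 were above 0 (median 0.21). In the inguinal fat Cdkn1a was at −0.66 ± 0.09, Efnb2 at −0.42 ± 0.15 and Nrarp at −0.42 ± 0.13, again without passing. The list's median there was 0.07, with Bcl2 at 0.64 ± 0.16 and Myc at 0.84 ± 0.22.

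Cdkn1a was the target whose effect differed between tissues: it was 1.18 ± 0.17 higher in brown than in epididymal fat (limma adjusted p = 0.0149), a call that was lost without brown fat sunitinib replicate 1. It was also lower in epididymal fat than in liver, by 0.72 ± 0.13 (limma adjusted p = 0.0194), a call lost when any 1 of the 4 liver libraries was left out. Its epididymal libraries read 11.26 and 10.99 with vehicle and 10.52 and 10.55 with sunitinib. In liver 1 target passed. Id1, which encodes an inhibitor of basic helix-loop-helix factors and is induced by BMP signals as well, read 7.05 and 7.10 with vehicle and 7.72 and 7.76 with sunitinib, and rose by 0.67 ± 0.07 (limma adjusted p = 0.0119), and it passed with each single library left out. Id1 was at 0.42 ± 0.10 in brown fat, 0.26 ± 0.11 in epididymal fat and 0.21 ± 0.28 in inguinal fat.

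Endothelial markers had the same signs as Dll4 in the 3 fats, without passing. Of the 15 pan-endothelial genes, 15 were above 0 in brown fat (median 0.35), 0 in epididymal fat (−0.39), 0 in inguinal fat (−0.37) and 2 in liver (−0.12), and none passed the test in any tissue. Their summed level (log2) was 13.66 to 14.03 with vehicle and 14.21 to 14.28 with sunitinib in brown fat, and 13.46 to 13.89 and 13.25 to 13.30 in epididymal fat. In inguinal fat it was 13.99 to 14.07 and 13.62 to 13.78, and in liver 11.34 to 11.49 and 11.20 to 11.21. Tie1, an endothelial receptor, was at 0.59 ± 0.10 in brown fat and −0.54 ± 0.10 in inguinal fat, and Cdh5, the endothelial cadherin, at 0.36 ± 0.16 and −0.60 ± 0.11.

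Set relative to the mean of those 15 genes in each library, the differences of Dll4 were smaller, with the same sign in the fats. In brown fat it was at −1.50 and −1.27 with vehicle and −1.19 and −1.24 with sunitinib, 0.17 higher. In epididymal fat it was at −1.79 and −1.91 with vehicle and −2.06 and −2.02 with sunitinib, 0.19 lower. The groups still did not overlap in those 2 fats. In inguinal fat the difference was −0.21 with overlapping libraries (−1.60 and −1.54, against −1.98 and −1.58), and in liver it was 0.02. On the same scale Jag2 (0.15) and Notch1 (0.11) were also above 0 in brown fat, and Notch1 turned to 0.17 in epididymal fat, 0.25 in inguinal fat and 0.08 in liver. Hey1 differed by −0.38 in brown fat and 0.23 in epididymal fat, and Hes1 by −0.21 and 0.67. The part of the endothelial markers in the Dll4 differences was not tested beyond this.

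**Figure D4:**
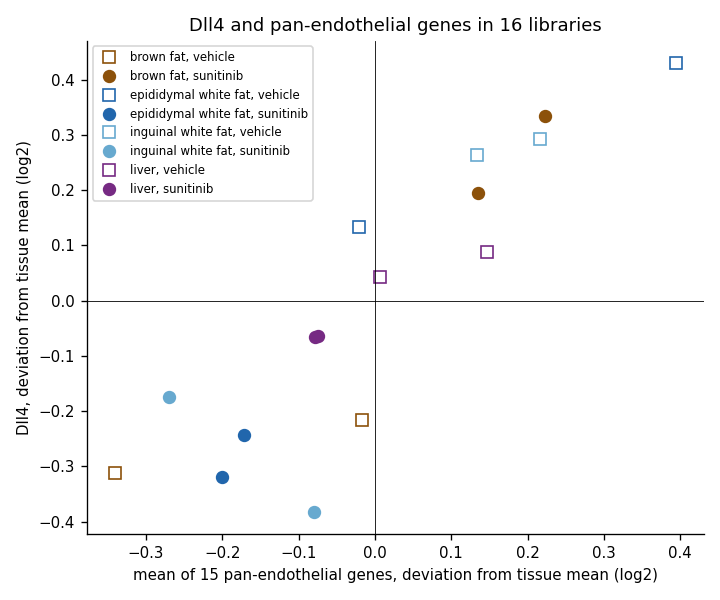
Deviation of Dll4 from its tissue mean (log2, vertical axis) against the deviation of the mean of 15 pan-endothelial genes (log2, horizontal axis), with 1 point per library, open squares for vehicle and filled circles for sunitinib. The 16 points rise together, with Pearson r 0.89.

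Over the 16 libraries, as deviations from each tissue's mean, Dll4 had r 0.89 with the pan-endothelial mean (Spearman rho 0.89). Notch1 and Hey1 had r 0.76, Jag1 0.66 and Heyl 0.63, while Hes1 (0.11) and Dll1 (0.14) did not follow it. Hes1 had r 0.80 with the mean of 9 mural genes, against 0.19 for Dll4 and −0.13 for Notch1. These are descriptions without a test: the libraries share their table, and each group of 2 shares its treatment.

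Among the 7 genes tested in all tissues, the closest pair was Dll4 and Notch1 (r 0.77), followed by Hey1 and Jag1 (0.72) and Dll4 and Hey1 (0.63). Hes1 was nearest to Dll1 (0.58) and Heyl (0.56) and had r 0.06 with Dll4. Dll4 and Notch1 were thus closer to each other than either was to Hes1, while the ligand Dll1 was closer to Hes1 than to Notch1 (0.13). Of 11112 other genes compared in the same way, those most like Dll4 were Kctd10 (0.94), Arhgap31 (0.93) and Tie1 (0.93). Those most like Notch1 were Cttnbp2nl (0.89), Arhgap31 (0.86) and Maff (0.86). Heyl was closest to Wipi2 (0.95), Dok4 (0.93) and Adam15 (0.92), and Hey1 to Rasal2, Nhsl2 and Rps6kc1 (0.92 each). Jag1 was closest to Otud3 (0.89), Bmp6 (0.87) and Mllt4 (0.86), Hes1 to Arhgef26 (0.88), Spryd4 (0.87) and Smtn (0.86), and Dll1 to Ier2 (0.86), 9130023H24Rik (0.84) and Gnb4 (0.82).

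Genes of tip cells, the state that Dll4 marks in sprouts, differed in their response between brown and epididymal fat. Of 10 tested, 5 passed with an effect higher in brown fat (Apln, Cxcr4, Dll4, Kcne3 and Pdgfb), against 3.64% of all genes in either direction. Dll4 is itself on that list, so the call already given for it is counted again among the 5. The list's median difference was 0.33 against 0.002 over all genes. The shift was not particular to tip cell genes: the pan-endothelial median in that pair was 0.73 with 15 of 15 above 0 and 0 passing, and the macrophage median was 0.53 with 3 of 6 passing. Pdgfb, the growth factor with which tip cells recruit mural cells, differed by 0.86 ± 0.16 (limma adjusted p = 0.0346) and read 9.03 and 8.84 with vehicle and 9.53 and 9.43 with sunitinib in brown fat. Apln, a secreted tip cell peptide, differed by 0.51 ± 0.10 (limma adjusted p = 0.0436). Left out 1 at a time, 1 of the 8 libraries ended the call of Dll4, 3 that of Cxcr4, 6 those of Kcne3 and Pdgfb and 7 that of Apln. Between brown fat and inguinal fat 9 of 10 were above 0 and 0 passed, and Aplnr, the receptor of Apln, passed there at 1.79 ± 0.15 (limma adjusted p = 0.0453, lost when any 1 of 6 libraries was left out).

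Within a tissue, 1 tip cell gene passed: Cxcr4, a chemokine receptor also borne by leukocytes, fell by 0.60 ± 0.07 in epididymal fat (limma adjusted p = 0.0323), where macrophage markers fell too, and it was lost without either vehicle library. In inguinal fat Cxcr4 read 7.34 and 7.40 with vehicle and 6.78 and 8.93 with sunitinib, the last in the lymphocyte-rich replicate 2. Apln in inguinal fat read 8.05 and 8.36 with vehicle and 7.11 and 7.54 with sunitinib, a difference of −0.88 ± 0.22 (limma adjusted p = 0.339).

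Arterial, venous and mural genes gave fewer calls. Sema3g, an arterial semaphorin, was at 0.34 ± 0.12 in brown fat and −0.67 ± 0.10 in epididymal fat (limma adjusted p = 0.0509), and that difference between the tissues passed (1.01 ± 0.17, limma adjusted p = 0.0261), lost when any 1 of 4 libraries was left out. Of the mural genes, Pdgfrb (0.91 ± 0.18) and Rgs5 (0.72 ± 0.14) also had a higher effect in brown than in epididymal fat (limma adjusted p = 0.0420 and 0.0405), each lost when any 1 of 6 libraries was left out. All 13 mural genes were below 0 in inguinal fat (median −0.31), with 0 passing. Of the 9 VEGF pathway genes 0 passed in any tissue. Kdr, the main VEGF receptor of endothelium and a target of sunitinib, was at 0.49 ± 0.13 in brown fat and −0.31 ± 0.12 in liver. Vegfa, the ligand, was at 0.38 ± 0.10 in epididymal fat (limma adjusted p = 0.141).

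**Figure D5:**
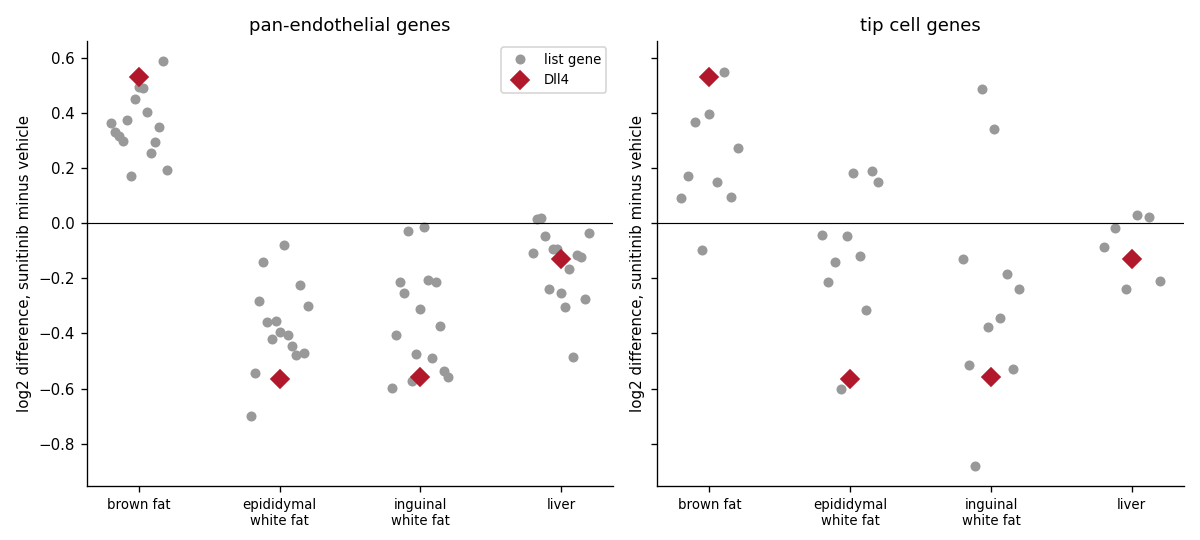
Sunitinib minus vehicle (log2 rlog, vertical axis) of each tested gene of the pan-endothelial list (left) and the tip cell list (right) in the 4 tissues, as grey points spread sideways for legibility, with Dll4 as a red diamond in both panels. All 15 pan-endothelial points lie above 0 in brown fat and below 0 in both white fats, as Dll4 does.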

How the data were processed

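The authors deposited 1 table per tissue of regularized log2 expression per gene and library. The submitters' processing notes name mouse build mm9 and the tools TopHat2 2.1.1, DESeq2, bedtools and bcl2fastq 2.17.1.14. How reads were assigned to genes, and whether by strand, is not given in the sources used here. Groups and replicate numbers came from the sample titles, and all columns matched a sample. The 9 genes, the gene lists and the tests were chosen with earlier results of these data known. Genes whose mean rlog in a tissue reached 3 (13044, 15526, 14916 and 12394 in brown, epididymal and inguinal fat and liver) were fitted per tissue with limma 3.58.1 in R 4.3.3. The fit used an intensity trend and no replicate block, and its tests were two-sided. Effects were compared between tissues by interaction contrasts over the genes tested in both. An exact permutation test of 2 against 2 libraries cannot go below 0.333, so none is given. On data simulated from the brown fat, epididymal, inguinal and liver tables, limma recovered 47%, 29%, 0% and 46% of genes changed by 0.5, and 83%, 69%, 0% and 87% of those changed by 1. The simulation took each gene's observed spread as its true spread and drew independent noise, so differences shared by many genes of a library were left out. These shares are therefore not detection rates of the real libraries, where 0 of 13044 genes passed in brown fat. The genes named are the 9, every passing gene of the pathway and vascular lists, up to 4 of each list with the smallest p per tissue, and the 3 most correlated genes of each of the 9. Alternatives were other filters, scalings, variance fits and left-out libraries. Without read totals no counting interval could be computed.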

Additional observations from a re-analysis of the deposited data

Results flagged for a closer look

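The sunitinib effect on Dll4 differed between brown fat and epididymal white fat by 1.09 ± 0.15 (log2, limma adjusted p = 0.0117), the only difference between tissues that passed among the 45 combinations of the 9 genes and tissue pairs tested. It was 0.53 in brown fat and −0.56 in epididymal fat. Over the 14 alternatives it ran from 0.94 to 1.24, with adjusted p-values from 0.00361 to 0.0694.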

How the results depend on the processing

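With 2 libraries per group, each call rests on few values, low genes are shrunk by the authors' transformation, and the depth is unknown. Left out 1 at a time, the libraries moved the number of genes passing from 0 to 1291 in brown fat, 0 to 1123 in epididymal fat, 0 to 4121 in inguinal fat and 50 to 454 in liver, where 0, 363, 0 and 24 passed. The highest counts came without vehicle replicate 1, sunitinib replicate 2, sunitinib replicate 1 and sunitinib replicate 4, in that order, and 0 passed in epididymal fat without either vehicle library. The count of the 9 genes passing moved too in brown and inguinal fat, along with the count of all genes. It is therefore not read as a result about the 9 genes. Their median ran from 0.17 to 0.34 in brown fat, from −0.0978 to 0.0195 in epididymal fat (the ends without vehicle replicates 1 and 2), from −0.32 to −0.11 in inguinal fat and from −0.0286 to 0.00890 in liver.

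In 1 fit over the 4 tissues, 4 genes passed in brown fat, 421 in epididymal fat, 2953 in inguinal fat and 9 in liver. Of the 9 genes, 2 passed in inguinal fat (Dll4 and Hey1) and 1 in epididymal fat (Dll4). The share of all genes passing in that fit is not given here, so these counts are not read as a result about the 9 genes. In epididymal fat 210 genes passed with no filter, 569 with a minimum of 5 and 584 in a robust fit. In liver 3 passed with no trend.

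With the titles' numbers as a replicate block, 678 of the 15526 genes tested passed in epididymal fat, and 0 passed in brown and inguinal fat. The 678 held 1 of the 9 genes (Dll4, limma adjusted p = 0.0463), just under the threshold. The labels state no pairing, and the deviations of same-numbered libraries had r −0.26 in brown fat, 0.22 in epididymal fat and 0.11 in inguinal fat. With the brown fat numbers crossed, chosen after seeing the data, 0 genes passed. No paired analysis was possible in liver because its groups share no number.

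Between tissues, the count of the 9 genes passing also moved with the library left out. This held for brown fat against each other tissue and for each white fat against liver. The share of all genes passing in those refits is not given here, so the count is not read as a result about these genes. A robust fit, whose share of all genes is likewise not given, passed 2 of the 9 for brown against epididymal fat and 1 for brown fat against liver.

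Signs turned only in differences that did not pass. With libraries left out, brown fat Hey1 ran from −0.16 to 0.12 and Jag1 from −0.0328 to 0.18. Epididymal Jag2 ran from −0.10 to 0.20 (−0.0132 with quantile normalization), Heyl from −0.14 to 0.12 and Jag1 from −0.24 to 0.0653. Inguinal Dll1 ran from −0.11 to 0.0912, Jag2 from −0.36 to 0.10 and Heyl from −0.26 to 0.0134. In liver Hey1 ran from −0.0812 to 0.00890 and Dll1 from −0.00715 to 0.0663. The epididymal minus inguinal effect on Dll4 ran from −0.16 to 0.14 and was 0.0159 with median centring. The causes were not tested. The difference of the Dll4 effect between brown and epididymal fat passed in 13 of 14 alternatives.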
